A study of Homo sapiens with 6 samples.

Results

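Renieramycin M (RM) was compared with its vehicle on 2 of the 6 arrays of a study of marine alkaloids in U373MG cells, an established human glioblastoma cell line. The pair was chosen by its labels: the array of cells exposed to RM at 3.10 nM for 24 hours, and the array of cells given DMSO at the concentration equivalent to RM for the same 24 hours. Both cultures grew in DMEM with serum and antibiotics, and the labels name no other treatment. The remaining 4 arrays hold ET-770 at 4.83 nM and ET-770-DR, a pyridinecarbonyl derivative of ET-770, at 1.70 nM, each with a DMSO array of its own at 24 hours. Every dose is an IC50 that was determined over 72 hours of exposure, so that the arrays were taken before that end point. The arrays are of the Human Gene 1.0 ST type, which reads a gene by probes along the whole transcript, and the deposited values are RMA signals on a log2 scale. Probes with exactly 1 gene symbol were averaged per gene, which gave 18417 genes. There was 1 array per arm, from 1 culture of a single cell line, so that no replicate error is known, no test can be made, and every difference below is the difference between these 2 arrays.

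Renieramycin M is a tetrahydroisoquinoline alkaloid of marine sponges and belongs to the same chemical family as the ecteinascidins from tunicates. Ecteinascidins of this family bind covalently to guanine in the minor groove of DNA, and they are known to disturb transcription by RNA polymerase II and the repair of DNA that is coupled to it. Glioblastoma is a malignant astrocytic tumor in which receptor tyrosine kinases, phosphoinositide signaling and cell adhesion are often altered.

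Far more genes were lower than higher past the 3-fold thresholds with RM. Downregulated genes, those more than 3-fold lower on the RM array, numbered 250, or 1.36% of 18417, and upregulated genes, those over 3-fold, numbered 8, or 0.0434%. At the milder limits 788 genes (4.28%) were under 0.5-fold and 123 genes (0.668%) were over 2-fold. The bulk of the genes lay the other way: 11493 genes, or 62.4%, were higher on the RM array, and the median log2 change of all genes was 0.12, with a 5th percentile of -0.93 and a 95th percentile of 0.63. RMA sets the overall level of arrays normalized together alike, and the medians over all probes were 6.63 and 6.77 in this pair, so that each change is relative to the other genes, and a general loss of RNA would not be seen. In bulk RNA, moreover, fewer cells of a kind and less RNA per cell cannot be told apart. The only gauge of noise in this pair was for probes near background, from the 361 olfactory receptor genes, which are not expected in glioma cells. These receptor genes do not measure the spread of expressed genes or that between cultures. Their median log2 change was 0.12 with an SD of 0.27 over the genes, their range ran from -0.59 to 1.11, and 0 of them were under 0.5-fold and 1, OR1D5, was over 2-fold. The limits fell within a continuous distribution, since GLI3 at 0.333262-fold was the last gene inside the lower limit and MBD5 at 0.333732-fold the first outside, while GABRQ at 3.00183-fold was just inside the upper limit and AKAP5 at 2.99727-fold just outside. The calls depend on the vehicle array. Against the mean of the 3 DMSO arrays, taken after quantile normalization of all 6 arrays, 187 of the 250 downregulated and 2 of the 8 upregulated genes kept their call, while with the same normalization and the DMSO array of RM alone 241 and 5 did. Values against that mean are given below beside some genes and lists, so that a value without one is not thereby stable. The list medians that moved by more than the SD of the olfactory receptors are given at the end.

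**Figure D1:**
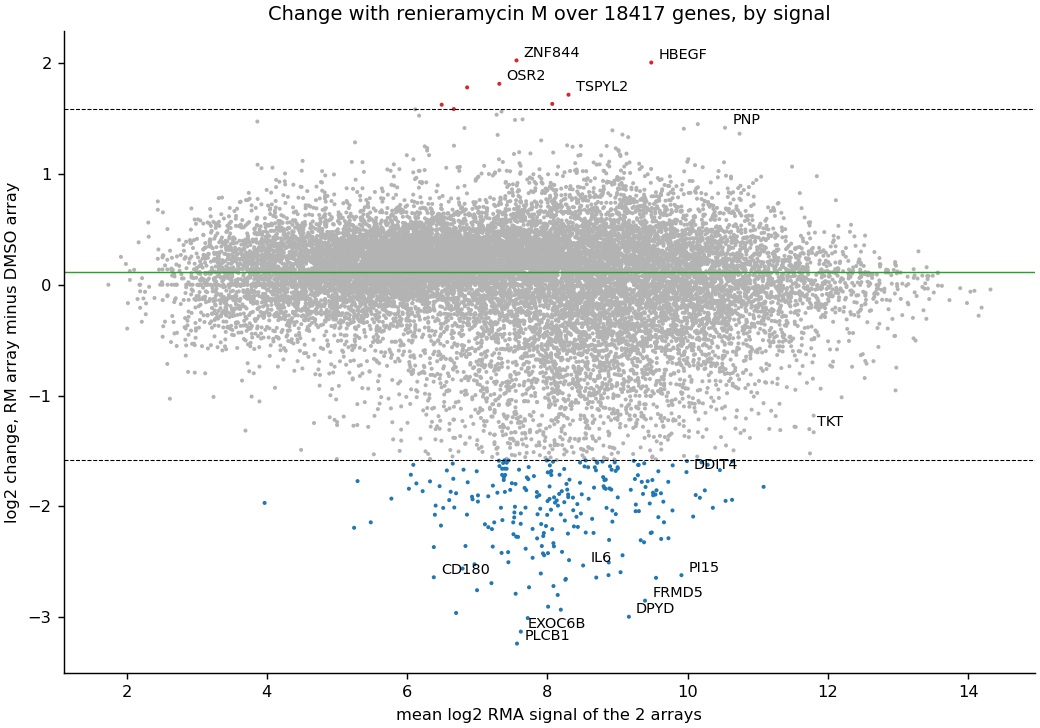
Log2 change (RM array minus DMSO array, vertical axis) against the mean log2 RMA signal of the 2 arrays (horizontal axis) for 18417 genes, each a point. Blue points are the 250 genes more than 3-fold lower, red points the 8 genes over 3-fold, dashed lines the 3-fold limits, and the green line the median of 0.12; the downregulated genes lie mostly at intermediate and high signals.

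The labelled cell type was checked against its markers. Vimentin (VIM) had log2 signals of 13.56 on the DMSO array and 13.25 on the RM array, CD44 12.87 and 12.19, and nestin (NES) 10.54 and 10.42, whereas GFAP, the filament protein of mature astrocytes, was low at 6.96 and 6.66. The cells thus carried these mesenchymal glioma markers strongly and GFAP weakly. Other astrocytic genes of the same list had clear signals, SLC1A3 with 10.83 and 9.67 and S100B with 9.43 and 8.05. Over the 26 astrocytic and mesenchymal markers the median signals were 10.68 and 10.15. Most markers of other cell types had signals not far from the olfactory receptors, whose medians were 4.41 and 4.56, and 7 of 67 had a signal of at least 8 with DMSO. The macrophage marker AIF1 stood at 4.41 and 4.53, the endothelial marker PECAM1 at 3.76 and 3.89, and the T cell marker CD3D at 5.24 and 5.26. The list medians were 5.62 and 6.03 for microglia and macrophages, 5.32 and 5.89 for endothelium, 5.24 and 5.38 for lymphocytes and 6.58 and 6.19 for oligodendrocytes. The oligodendrocyte list had a median log2 change of 0.17 and 9 of 11 members higher, beside 62.4% of all genes. Far above the receptors stood CD68 with 9.49 and 10.06 and LAPTM5 with 9.30 and 8.82 of the macrophage list, CNP with 11.12 and 11.30 and UGT8 with 9.55 and 8.95 of the oligodendrocyte list, and ENO2 with 9.90 and 10.13 of the neuron list. Over the whole lists, 0 of 16 microglia and macrophage markers, 0 of 11 endothelial markers, 0 of 11 lymphocyte markers and 0 of 11 oligodendrocyte markers were under 0.5-fold, and 1 of them, CD14, was over 2-fold, with signals of 6.23 and 7.26 and a log2 change of 0.84 against the mean of the 3 DMSO arrays. Of the 18 neuron markers, 3 were under 0.5-fold, namely MAP2, SYT1 and NEFL, with signals of 8.72, 6.13 and 8.87 on the DMSO array, and the list medians were 5.84 and 5.75.

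By the mean of each gene's probes, the lowest gene encodes phospholipase C beta 1 (PLCB1), which cleaves the membrane lipid PIP2 after G protein activation. Its log2 signal was 9.19 on the DMSO array and 5.95 on the RM array, a change of -3.24 or 0.106-fold. Membrane traffic and the cytoskeleton followed closely. EXOC6B, a subunit of the exocyst that tethers secretory vesicles, went from 9.19 to 6.06, or 0.114-fold. PSD3, an exchange factor for the small GTPase ARF6, went from 9.22 to 6.22, or 0.124-fold. That value is the mean of probes at 0.068-fold and 0.227-fold, and the former lies below PLCB1. DIAPH2, a formin that builds actin filaments, went from 8.18 to 5.22, or 0.128-fold. Each of these genes had a signal above 8 with the vehicle, and DIAPH2 had the lowest with RM. ELMO1, which together with DOCK1 activates Rac in cell migration and engulfment, went from 9.66 to 6.72, or 0.131-fold, and DOCK1 itself from 9.55 to 7.07, or 0.179-fold. Both partners of this Rac exchange complex were therefore downregulated.

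Enzymes of metabolism and second messengers stood beside them among the 20 lowest genes. DPYD, the first enzyme of pyrimidine breakdown, which also degrades fluorouracil, went from 10.66 to 7.66, or 0.125-fold. PDE1C, a calmodulin-dependent phosphodiesterase of cyclic nucleotides, went from 9.46 to 6.56, or 0.133-fold. The N-glycan branching enzyme MGAT5 went from 9.10 to 6.37, or 0.151-fold. CDKAL1, which modifies transfer RNA, went from 9.45 to 6.73, or 0.152-fold. The chromatin enzyme KDM4C, a histone lysine demethylase, had signals of 8.94 and 6.15, or 0.145-fold, and CDK14, a cyclin-dependent kinase at the membrane, 9.59 and 6.92, or 0.158-fold.

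Surface receptors formed another group of the lowest genes. TACR1, the substance P receptor, had log2 signals of 9.55 with DMSO and 6.75 with RM, or 0.144-fold. PTPRZ1, a receptor-type phosphatase that is abundant in glioma, had 9.59 and 6.93, or 0.159-fold. EPHA3, an ephrin receptor, had 10.87 and 8.23, or 0.16-fold. EPHA3 thus remained readable with RM although it was downregulated. CD180, a Toll-like receptor homolog known from B cells, had 7.70 and 5.06, or 0.16-fold. The remaining genes of the 20 lowest were FRMD5 at 0.139-fold, VPS13B at 0.148-fold, SBF2 at 0.155-fold, APBB2 at 0.16-fold and PI15 at 0.163-fold. PI15, a secreted protein, had the strongest signal of the 20 with DMSO, 11.22, and 8.60 with RM.

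**Figure D2:**
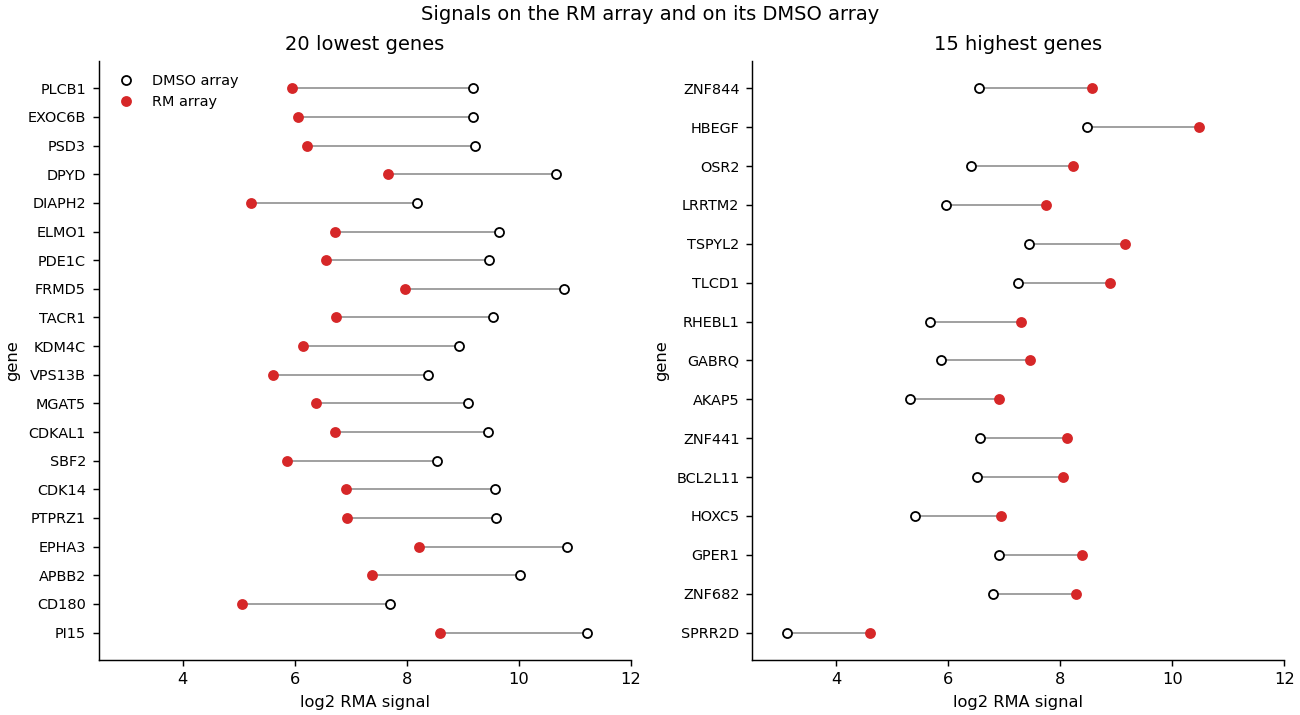
Log2 RMA signals (horizontal axis) of the 20 lowest and 15 highest genes by RM minus DMSO, 1 row per gene, with the DMSO array as open points and the RM array as red points joined by a line. The 20 lowest genes had signals between 7.70 and 11.22 with DMSO, and SPRR2D is the only gene of the 15 highest with a signal under 5 on both arrays.

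The 8 upregulated genes, among those with probes of exactly 1 symbol, were ZNF844, HBEGF, OSR2, LRRTM2, TSPYL2, TLCD1, RHEBL1 and GABRQ, which span 3.59 to 21.1 kb. DENND2C, first in the paper's list of genes raised by RM, is not among them. ZNF844, which encodes a zinc finger protein, had log2 signals of 6.55 with DMSO and 8.57 with RM, or 4.07-fold. HBEGF, a ligand of the epidermal growth factor receptor that is shed from the cell surface, had 8.48 and 10.48, or 4.02-fold. OSR2, a zinc finger regulator of limb and palate development, had 6.41 and 8.22, or 3.52-fold. HBEGF was the only gene of the 8 with a signal above 10 on the RM array. LRRTM2, a synaptic adhesion protein of neurons, had 5.96 and 7.75, or 3.44-fold, and TSPYL2, a nucleosome assembly family protein that restrains the cell cycle, 7.44 and 9.16, or 3.28-fold. The genes from 9th to 15th place were AKAP5, ZNF441, BCL2L11, HOXC5, GPER1, ZNF682 and SPRR2D, at 3.00-fold to 2.78-fold. The last of them, SPRR2D, had signals of only 3.13 and 4.60, in the range of the olfactory receptors. Compared with the mean of the 3 DMSO arrays, ZNF844 at 1.93 and HBEGF at 1.64 on the log2 scale stayed over 3-fold. The other upregulated genes did not, with OSR2 at 1.23, TSPYL2 at 1.34, TLCD1 at 1.43, RHEBL1 at 1.40, GABRQ at 1.02 and LRRTM2 at 0.81, and SPRR2D was at 0.74.

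The promoters of genes at each end are shown so that the sequence at which their transcription starts can be set beside the base composition of all promoters. Windows of 300 bases, from 250 before the transcription start to 50 after, were read from the RefSeq table of GRCh38.p14, which holds 14239 of the 18417 genes. Capitals mark the letters CCAAT, the GC box GGGCGG and the TATA box TATAAA, each searched on both strands, and matches that overlap are joined. The windows below belong to the upregulated genes HBEGF (chr5:140346554-140346853, minus strand), ZNF844 (chr19:12064481-12064780, plus strand) and TSPYL2 (chrX:53082117-53082416, plus strand), and to the downregulated genes DPYD (chr1:97920985-97921284, minus strand), DIAPH2 (chrX:96684592-96684891, plus strand) and FRMD5 (chr15:44195222-44195521, minus strand).
HBEGF: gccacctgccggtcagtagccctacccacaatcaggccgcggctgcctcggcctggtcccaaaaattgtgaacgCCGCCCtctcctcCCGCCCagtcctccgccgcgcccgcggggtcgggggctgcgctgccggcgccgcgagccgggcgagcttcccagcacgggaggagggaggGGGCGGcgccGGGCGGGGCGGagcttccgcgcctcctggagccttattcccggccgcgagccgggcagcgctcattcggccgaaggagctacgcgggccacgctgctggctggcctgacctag
ZNF844: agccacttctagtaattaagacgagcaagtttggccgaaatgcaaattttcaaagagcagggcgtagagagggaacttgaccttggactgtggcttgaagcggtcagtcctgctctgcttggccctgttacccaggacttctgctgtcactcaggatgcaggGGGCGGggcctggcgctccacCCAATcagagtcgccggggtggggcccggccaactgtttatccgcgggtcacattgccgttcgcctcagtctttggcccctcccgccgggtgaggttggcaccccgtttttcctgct
TSPYL2: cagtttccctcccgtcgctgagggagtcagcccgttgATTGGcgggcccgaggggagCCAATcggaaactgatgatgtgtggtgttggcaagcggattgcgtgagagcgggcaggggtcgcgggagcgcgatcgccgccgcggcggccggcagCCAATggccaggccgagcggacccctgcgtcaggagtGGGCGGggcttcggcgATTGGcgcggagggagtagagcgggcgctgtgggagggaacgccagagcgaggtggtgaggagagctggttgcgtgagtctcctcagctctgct
DPYD: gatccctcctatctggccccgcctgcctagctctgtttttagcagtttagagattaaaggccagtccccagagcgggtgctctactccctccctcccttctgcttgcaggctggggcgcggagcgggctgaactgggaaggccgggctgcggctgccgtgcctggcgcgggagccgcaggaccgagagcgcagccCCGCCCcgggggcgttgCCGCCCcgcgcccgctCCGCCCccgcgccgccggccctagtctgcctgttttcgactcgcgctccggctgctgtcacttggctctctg
DIAPH2: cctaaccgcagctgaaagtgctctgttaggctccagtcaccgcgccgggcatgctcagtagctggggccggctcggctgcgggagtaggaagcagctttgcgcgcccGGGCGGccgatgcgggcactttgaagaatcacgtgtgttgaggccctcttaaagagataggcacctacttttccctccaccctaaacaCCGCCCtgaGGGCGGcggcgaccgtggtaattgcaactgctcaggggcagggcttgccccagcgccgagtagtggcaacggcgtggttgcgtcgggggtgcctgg
FRMD5: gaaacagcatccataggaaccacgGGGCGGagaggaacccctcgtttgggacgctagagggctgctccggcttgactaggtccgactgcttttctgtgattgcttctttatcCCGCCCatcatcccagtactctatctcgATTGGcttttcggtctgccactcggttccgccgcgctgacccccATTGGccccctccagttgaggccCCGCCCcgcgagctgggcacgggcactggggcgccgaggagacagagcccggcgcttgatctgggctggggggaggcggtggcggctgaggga
The HBEGF window held GGGCGG 3 times forward and 2 times in reverse with 75% G and C, and that of TSPYL2 held CCAAT 2 times forward and 2 times in reverse with 68.7% G and C. Those of DPYD, DIAPH2 and FRMD5 had 70.3%, 64.3% and 64.7% G and C. The window of PDE1C, a downregulated gene with a lower change than FRMD5, is not printed here. It had 49.3% G and C and held GGGCGG 0 times on either strand. Over all genes the median was 63.0%, over the 205 downregulated genes with a window 64.7%, and over the 92 genes above 2-fold with a window 63.7%. GGGCGG occurred in 60.0% of all windows, in 60.0% of those of the downregulated genes and in 69.6% of those above 2-fold. CCAAT occurred in 36.3%, 33.7% and 45.7%, and TATAAA in 9.0%, 10.2% and 9.78%. The downregulated genes and the genes above 2-fold are sets at unlike limits. Over the 655 genes under 0.5-fold with a window, the median was 65.7% G and C. GGGCGG occurred in 65.3% of those windows, CCAAT in 34.7% and TATAAA in 7.33%. These are shares of letters in a window, and whether any factor binds there was not measured.

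Most downregulated genes were long. The gene span, from first to last base in the RefSeq annotation of GRCh38.p14, was known for 18386 of the 18417 genes and had a median of 24.5 kb. The 250 downregulated genes had a median span of 321 kb, with quartiles of 234 and 458 kb, and 231 of them (92.4%) spanned more than 100 kb, against 16.9% of all genes. The 123 genes over 2-fold had a median span of 9.97 kb, 0 of them reached 100 kb, and the longest had 89.8 kb. Among the genes with a mean log2 signal of at least 8, the median log2 change was 0.26 for spans under 5 kb, 0.28 for 5 to 10 kb, 0.23 for 10 to 20 kb and 0.06 for 20 to 50 kb. It then went on to -0.25 for 50 to 100 kb, -0.71 for 100 to 200 kb, -1.28 for 200 to 500 kb and -1.94 for the 23 genes over 500 kb. The median was thus lower in each class from 10 kb upwards, and the share of downregulated genes was 33.5% of the 275 genes of 200 to 500 kb and 69.6% of those over 500 kb. In genes with a mean log2 signal under 6, the class medians stayed between 0.00 and 0.17. Genes so near background have little room to fall, so these medians cannot tell whether span goes with change there. The signal classes use the mean of both arrays, so that a gene that fell strongly can leave the upper class. PLCB1, with 9.19 and 5.95, is such a gene. Over the 7635 genes with a signal of at least 8, Spearman's rank correlation between span and change was -0.65, a description across genes of 1 array pair, which share the arrays and are not independent.

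**Figure D3:**
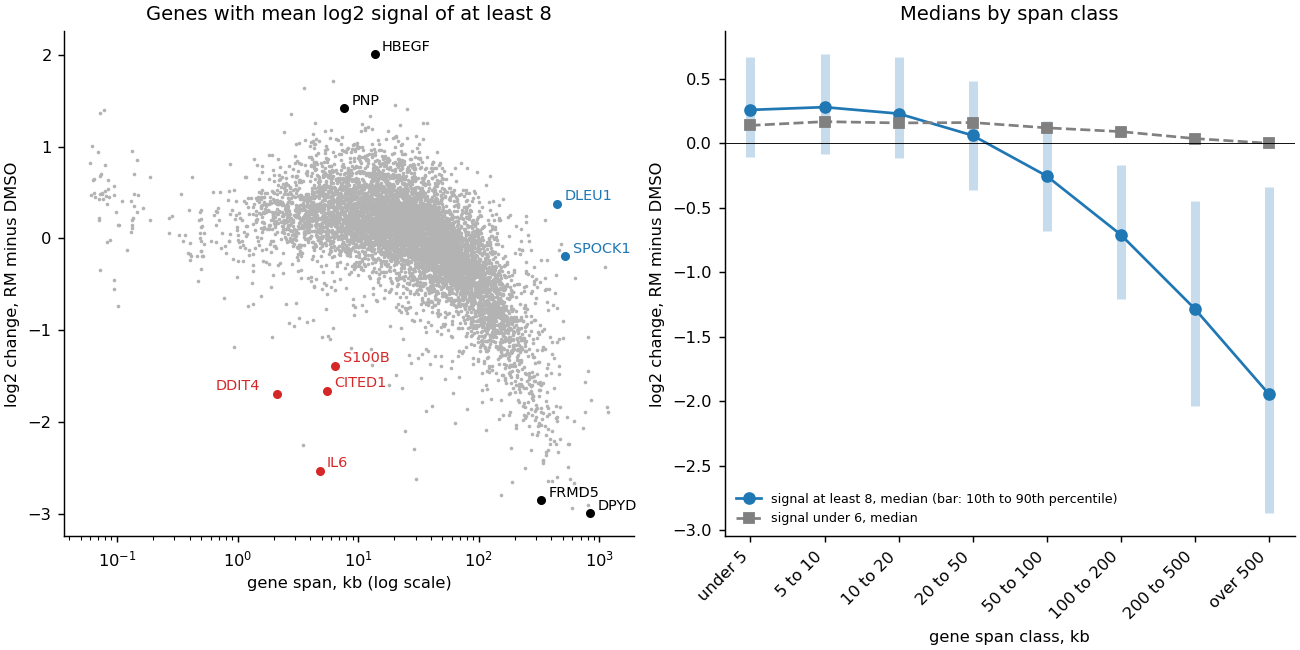
Left, log2 change (RM minus DMSO) against gene span in kb on a log axis for the 7635 genes with a mean log2 signal of at least 8, with short lowered genes in red, long genes of little change in blue and other named genes in black. Right, class medians from 0.26 under 5 kb to -1.94 over 500 kb for these genes (blue, bars from the 10th to the 90th percentile) and for genes with a signal under 6 (grey), which stay near 0 but have little room to fall.

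Not every long gene was lower, and a few short ones were. Of the 298 genes over 200 kb with a mean log2 signal of at least 8, 212 were under 0.5-fold, 45 lay within 1.5-fold of the vehicle and 7 were higher with RM. Among those of little change were OXR1, a factor of oxidative stress resistance that spans 482 kb, with signals of 8.98 and 8.92, and the proteoglycan SPOCK1 of 524 kb, with 9.82 and 9.62. The noncoding RNA DLEU1, of 446 kb, had 8.18 and 8.56, the most positive change of these long genes at 0.38. RUNX1, a transcription factor of 261 kb, had 8.51 and 8.49. Against the mean of the 3 DMSO arrays, OXR1 and DLEU1 were again higher or little changed at 0.36 and 0.66, while SPOCK1 and RUNX1 were at -1.13 and -0.96. With the same normalization of all 6 arrays and the DMSO array of RM alone, SPOCK1 and RUNX1 were at -0.19 and 0.0038, so that these 2 exceptions rest on the vehicle array used. In the other direction, 27 of the 8234 genes under 20 kb were below 0.5-fold, of which 14 had a mean signal of at least 8.

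The lowest gene under 20 kb was CD180, given above, with a span of 17.2 kb. The next was interleukin 6 (IL6), a cytokine of inflammation and glioma growth, which spans 4.80 kb and had log2 signals of 9.78 with DMSO and 7.24 with RM, or 0.173-fold. Its promoter window (chr7:22726950-22727249, plus strand, GRCh38.p14) is shown because its change set it apart from genes of like length, with the same capitals as above.
IL6: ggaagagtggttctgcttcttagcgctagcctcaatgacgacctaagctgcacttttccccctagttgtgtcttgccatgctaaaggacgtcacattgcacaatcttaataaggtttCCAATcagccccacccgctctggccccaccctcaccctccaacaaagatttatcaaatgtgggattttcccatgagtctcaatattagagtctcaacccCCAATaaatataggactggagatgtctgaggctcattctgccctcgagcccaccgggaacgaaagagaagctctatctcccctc
It held CCAAT 2 times forward and had 49.3% G and C. Against the mean of the 3 DMSO arrays the log2 change of IL6 was -2.33, beside -2.53 against its own. The antisense transcript IL6-AS1 was also lower, from 6.91 to 5.20, or 0.305-fold, and whether the probes tell the 2 neighbouring transcripts apart was not tested. DDIT4, an inhibitor of mTOR induced by stress and low oxygen, had 10.83 and 9.14, or 0.31-fold. CITED1, a transcriptional coregulator, had 9.83 and 8.17, or 0.317-fold. Both were read well on the 2 arrays. S100B, a calcium-binding protein of astrocytes, had 9.43 and 8.05, or 0.383-fold. Against the mean of the 3 DMSO arrays DDIT4 was at -1.79, CITED1 at -0.67 and S100B at -1.17 on the log2 scale. The urokinase gene PLAU had 11.29 and 10.09, or 0.437-fold, and the chemokine gene CCL2 9.11 and 8.04, or 0.476-fold. SCGB3A2, of 3.48 kb, had 9.42 and 7.17, or 0.211-fold. With the other control PLAU and SCGB3A2 were at -0.28 and -0.70, both within 2-fold.

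Genes were next grouped into 50 lists by role, with 1985 distinct measured genes. Their counts stand beside those of all genes (1.36% downregulated, 4.28% under 0.5-fold, 0.668% over 2-fold, 62.4% higher with RM, median 0.12). Since span went with change, each gene was also set beside the median change of the genes of its own span class and signal class, and the list median of that difference is called the span-adjusted median here.

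The list with the lowest median was that of Rab regulators, the exocyst and membrane traffic. Of its 55 members, 12 were downregulated, 27 were under 0.5-fold, 0 were over 2-fold, and the median log2 change was -0.96. Beside EXOC6B, VPS13B and SBF2 it held ATG10, an enzyme of autophagosome formation, with signals of 9.07 and 6.83, or 0.212-fold, and -1.54 on the log2 scale against the mean of the 3 DMSO arrays. The members spanned 208 kb at the median, and the span-adjusted median was -0.16.

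Adhesion lists had medians below that of all genes. Of 50 focal adhesion and integrin genes, 8 were downregulated and 17 under 0.5-fold, with a median of -0.42 and a span-adjusted median of -0.22. PTK2, the focal adhesion kinase, had log2 signals of 10.46 and 8.56, or 0.268-fold. VAV2, an exchange factor downstream of receptors, had 8.31 and 6.17, or 0.226-fold, and ARHGAP26, a GTPase-activating protein that binds PTK2, 9.25 and 6.92, or 0.199-fold. These members act at the cytoplasmic side of integrins. Of 41 adherens junction and polarity genes, 4 were downregulated, with a median of -0.38 and a span-adjusted median of -0.07, and among them the polarity protein PARD3 had 8.25 and 6.06, or 0.219-fold, and cadherin 11 (CDH11) 11.13 and 9.21, or 0.264-fold. Of 35 extracellular matrix chains, 1 was downregulated, the collagen chain COL11A1 with 10.31 and 8.49, or 0.282-fold, which was -0.94 on the log2 scale against the mean of the 3 DMSO arrays. The list median was -0.27 and the span-adjusted median -0.03. VCAN, which encodes the large proteoglycan versican, had 12.46 and 11.13, or 0.397-fold. COL1A2 had 12.70 and 11.69 and COL5A2 11.47 and 10.35, but against the mean of the 3 DMSO arrays the log2 changes of these 2 genes were 0.59 and 0.56, the opposite direction.

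Of 49 genes of synaptic and neural adhesion, 6 were downregulated and 1, LRRTM2, was upregulated. The neuroligin NLGN4X had log2 signals of 9.22 and 6.80, or 0.187-fold, and the scaffold protein CASK 9.46 and 7.37, or 0.234-fold. The list median was nevertheless 0.09, at a median signal of 6.29 on the DMSO array. Of 74 axon guidance genes, 6 were downregulated, with a median of -0.04. Besides EPHA3, the netrin receptor UNC5C had 8.65 and 6.23, or 0.188-fold, the semaphorin receptor NRP2 11.12 and 9.03, or 0.235-fold, and the semaphorin SEMA3A 11.60 and 9.66, or 0.26-fold. NRP2 and SEMA3A were among the strongest signals with DMSO in this list and were still read at above 9 with RM.

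Growth factor receptors and their ligands did not share a direction. Among 14 ErbB receptors and ligands, NRG1, a ligand of ERBB3 and ERBB4, had log2 signals of 8.56 and 6.14, or 0.187-fold, and TGFA, a ligand of EGFR, 9.50 and 7.85, or 0.319-fold, while HBEGF was at 4.02-fold. EGFR itself had 9.11 and 8.24, or 0.547-fold. Ligands of the same receptor, TGFA and HBEGF, therefore lay past the limits in opposite directions. Of 55 ErbB signal transducers, 5 were downregulated, among them protein kinase C alpha (PRKCA) with 9.21 and 6.60, or 0.164-fold, CAMK2D at 0.243-fold and the PI3 kinase subunit PIK3CB at 0.312-fold. GSK3B, a kinase of glycogen and Wnt signaling, had 9.07 and 7.41, or 0.316-fold. PIK3CB was at -1.14 and GSK3B at -1.52 on the log2 scale against the mean of the 3 DMSO arrays. Of 40 other growth factors and receptors, 0 passed 3-fold and 5 were under 0.5-fold, with a median of -0.32. Among 16 receptor-type tyrosine phosphatases 3 were downregulated, PTPRZ1, PTPRK and PTPRG, with PTPRK at 9.66 and 7.43, or 0.212-fold, and PTPRG at 8.26 and 6.54, or 0.304-fold. The median of the phosphatases was -0.24, and -0.65 against the mean of the 3 DMSO arrays.

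Second messenger genes contained extreme members at a central median. Of 65 phosphoinositide and inositol phosphate genes, 6 were downregulated, 8 were under 0.5-fold and the median was -0.01. Beside PLCB1 these included PLCE1, another phospholipase C, with signals of 9.41 and 7.0, or 0.188-fold, and the inositol trisphosphate receptors ITPR1, with 9.10 and 6.74, or 0.195-fold, and ITPR2, with 8.70 and 6.54, or 0.224-fold, and -1.47 on the log2 scale against the mean of the 3 DMSO arrays. Enzymes that make the messenger and channels that answer it thus both appeared in the count. Of 13 protein kinases C and D, PRKCA and PRKD1 were downregulated, PRKD1 at 9.04 and 6.96, or 0.237-fold, and PRKCE and PRKCH were at 0.347-fold and 0.372-fold. In the 45 genes of cyclic nucleotide signaling, 3 were downregulated, PDE1C, AKAP6 and PDE8A, and 1, the anchoring protein AKAP5, was at 3.00-fold with signals of 5.32 and 6.91.

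**Figure D4:**
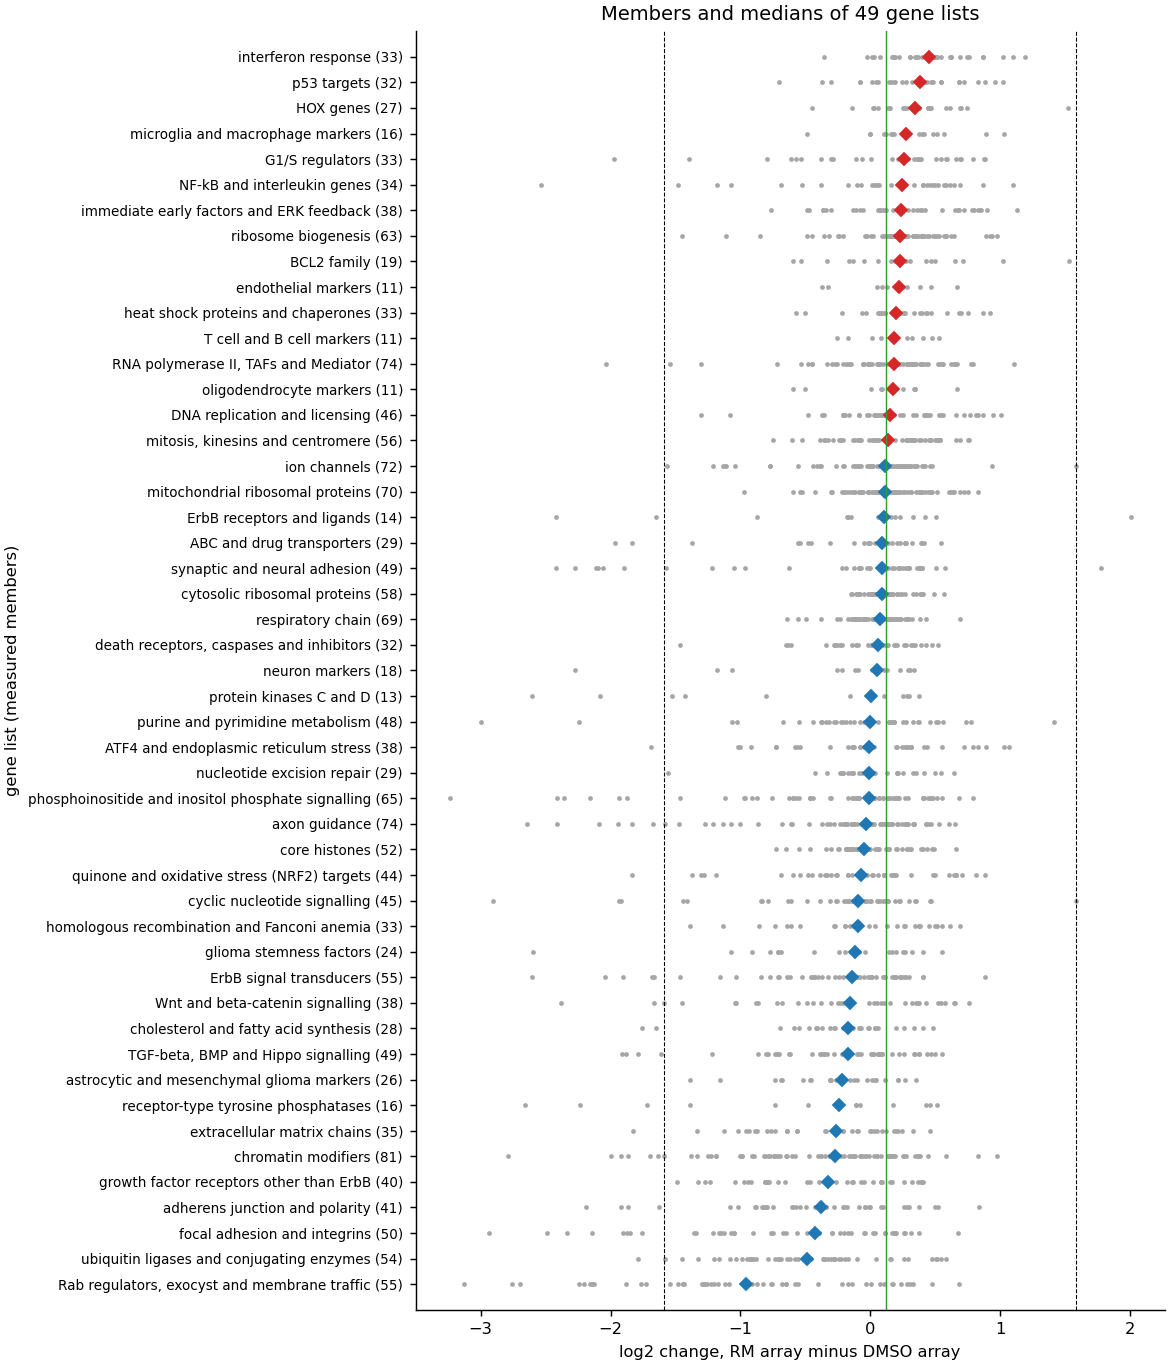
Log2 change (RM minus DMSO, horizontal axis) of every measured member (grey points) and the median (diamond) of each of 49 of the 50 gene lists, with the number of measured members in parentheses. Medians run from -0.96 for Rab regulators, exocyst and membrane traffic to 0.45 for the interferon response; the green line is the all-gene median of 0.12, diamonds are red above it and blue below it, and dashed lines are the 3-fold limits.

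Chromatin and ubiquitin genes had medians below that of all genes, the general transcription machinery did not. Of 81 chromatin modifiers, 7 were downregulated and 14 under 0.5-fold, with a median of -0.27 and a span-adjusted median of -0.06. After KDM4C came MLLT3, a reader of acylated histones in the elongation machinery, with log2 signals of 7.40 and 5.41, or 0.251-fold, JARID2, a cofactor of PRC2, with 9.32 and 7.40, or 0.264-fold, and the histone methyltransferase KMT2C with 9.14 and 7.27, or 0.275-fold. Of 54 ubiquitin ligases and conjugating enzymes, 1 was downregulated and 8 were under 0.5-fold, with a median of -0.49 at a median span of 116 kb and a span-adjusted median of -0.03. The 74 genes of RNA polymerase II, its TAF factors and Mediator had a median of 0.18. POLR2A, the catalytic subunit of RNA polymerase II, had 9.44 and 10.55, or 2.16-fold, whereas MED13L of the Mediator kinase module had 9.39 and 7.35, or 0.244-fold, and GTF2F2, a subunit of TFIIF, 9.27 and 7.73, or 0.344-fold. POLR2A was at 0.03 and GTF2F2 at -0.56 on the log2 scale against the mean of the 3 DMSO arrays. POLR2A spans 30.3 kb, MED13L 319 kb and GTF2F2 164 kb. Among 52 core histone genes 0 passed 2-fold, the median was -0.05 and the span-adjusted median -0.28.

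Cell cycle regulators had members on either side. Of 33 G1/S regulators, 1 was downregulated, CDK6, which phosphorylates the retinoblastoma protein, with log2 signals of 10.45 and 8.47, or 0.255-fold. RB1, the retinoblastoma gene, had 10.42 and 9.02, or 0.379-fold. The phosphatase CDC25A had 8.08 and 8.95, or 1.83-fold, and the kinase inhibitor CDKN1A 7.59 and 8.48, or 1.85-fold. The list median was 0.26, and -0.058 against the mean of the 3 DMSO arrays. Against that mean CDKN1A had a log2 change of -0.07, the opposite direction, and CDC25A had 1.28. Of 46 DNA replication and licensing genes, 1 was over 2-fold, the licensing factor CDT1, with 8.67 and 9.68, or 2.01-fold, and ORC6 of the origin recognition complex was at 1.93-fold. PRIM2, a primase subunit, and POLA1, the catalytic subunit of polymerase alpha, were at 0.406-fold and 0.473-fold, POLA1 at -0.27 on the log2 scale against the mean of the 3 DMSO arrays. Of 56 genes of mitosis, kinesins and centromeres 0 passed 2-fold in either direction, with values from 0.594-fold for KIF4A, whose change was 0.01 on the log2 scale against the mean of the 3 DMSO arrays, to 1.70-fold for NEK2.

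DNA repair lists stayed near the all-gene median. Nucleotide excision repair, with 29 members, had a median of -0.01, and the single member past 2-fold was MNAT1, a subunit of the CDK-activating kinase of TFIIH, with signals of 7.99 and 6.44, or 0.341-fold. The damage sensor XPC had 7.81 and 8.36, or 1.46-fold, and XAB2, which binds XPA, 9.34 and 9.99, or 1.57-fold. Of 33 homologous recombination and Fanconi anemia genes, 2 were under 0.5-fold, FANCC at 0.383-fold and RAD51B at 0.456-fold, and the median was -0.09. FANCC was at -0.98 on the log2 scale against the mean of the 3 DMSO arrays.

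Targets of p53 lay above most genes without large changes. Of 32 such genes, 27 were higher with RM, 1 was over 2-fold, 0 were under 0.5-fold, and the median was 0.38, with a span-adjusted median of 0.25. PMAIP1, which encodes the BH3-only protein NOXA, had log2 signals of 9.93 and 10.95, or 2.04-fold. The quinone oxidoreductase gene TP53I3 had 9.09 and 10.05, or 1.95-fold, and SESN2 7.51 and 8.34, or 1.77-fold. Against the mean of the 3 DMSO arrays the list median was 0.26 and PMAIP1 was at 0.29 on the log2 scale. Of the 19 BCL2 family genes, BCL2L11, which encodes the BH3-only protein BIM, had 6.51 and 8.04, or 2.90-fold, with a log2 change of 0.73 against the mean of the 3 DMSO arrays, and the effector BAK1 9.03 and 9.74, or 1.64-fold. The survival member MCL1 had a log2 change of 0.47, and BCL2 of -0.33. Of 32 genes of death receptors, caspases and their inhibitors 1 passed 2-fold, the inhibitor BIRC6 at 0.362-fold, and the median was 0.06.

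Against the DMSO array of RM, the medians of the stress lists lay not far from that of all genes. In the list of ATF4 and endoplasmic reticulum stress, with 38 members and a median of -0.01, PPP1R15A, a phosphatase subunit that restores translation, had log2 signals of 8.35 and 9.42, or 2.10-fold, and CHAC1, which degrades glutathione, 7.88 and 8.91, or 2.04-fold. The sensor ATF6 had 10.95 and 9.93, or 0.493-fold. The higher genes were within 2-fold against the mean of the 3 DMSO arrays, with PPP1R15A at 0.34 and CHAC1 at 0.36 on the log2 scale. Of 44 targets of NRF2, the regulator of the response to quinones and oxidants, 5 were under 0.5-fold and 0 over 2-fold, with a median of -0.07. The export pumps ABCC4 and ABCC1 were at 0.28-fold and 0.386-fold, transketolase (TKT) at 0.405-fold and SESN3 at 0.411-fold, which was -0.54 on the log2 scale against the mean of the 3 DMSO arrays. TKT, which spans 31.3 kb, had 12.38 and 11.08. The 33 heat shock proteins and chaperones had a median of 0.20, and 0 passed 2-fold. Against the mean of the 3 DMSO arrays the median of this list was 0.50. Among 38 immediate early genes and ERK feedback inhibitors 1 was over 2-fold, IER5, with 9.44 and 10.57, or 2.19-fold, and JUNB was at 1.87-fold and DUSP1 at 1.80-fold.

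Inflammatory genes were mixed and interferon genes were on the high side. Of 34 NF-kB and interleukin genes, IL6 was downregulated, the interleukin 1 receptor chains IL1R1 and IL1RAP were at 0.359-fold and 0.441-fold, and the inhibitor NFKBIE had log2 signals of 8.11 and 9.21, or 2.15-fold. These are the 4 members of largest absolute change. Over the whole list 24 of 34 members were higher, beside 62.4% of all genes, with a median of 0.24 and a span-adjusted median of 0.09. IL1R1 was at -0.94 on the log2 scale against the mean of the 3 DMSO arrays. Of 33 interferon response genes, 31 were higher with RM, 3 were over 2-fold, and the median of 0.45 was the highest of the 50 lists. IFIT3, an antiviral protein, had 7.49 and 8.68, or 2.29-fold, IFI44L 7.85 and 8.94, or 2.14-fold, and IFIT2 7.99 and 9.02, or 2.04-fold. The peptide transporter TAP1 was at 1.83-fold, with 3 probes that hold identical signals. Against the mean of the 3 DMSO arrays, however, the list median was -0.85, IFI44L was at -1.73, IFIT3 at 0.46 and IFIT2 at 0.48. With the same normalization of all 6 arrays and the DMSO array of RM alone the list median was 0.36, so that the direction of this list rests on which vehicle array is used.

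Metabolism and transport held single large values. Of 48 purine and pyrimidine genes, DPYD and adenosine kinase (ADK) were downregulated, ADK with log2 signals of 9.78 and 7.54, or 0.212-fold. Purine nucleoside phosphorylase (PNP), with 9.82 and 11.24, was at 2.67-fold. DPYD spans 843 kb, ADK 558 kb and PNP 7.68 kb. Of 28 cholesterol and fatty acid genes, the elongase ELOVL6 and acetyl-CoA carboxylase (ACACA) were downregulated at 0.295-fold and 0.319-fold, and the sterol enzymes HMGCS1 and LSS were at 0.617-fold and 0.665-fold, HMGCS1 in the opposite direction against the mean of the 3 DMSO arrays (0.30), with a list median of -0.17. Of 29 ABC and drug transporters, 2 were downregulated, the cholesterol exporter ABCA1, with 9.09 and 7.12, or 0.256-fold, and ABCC4. Of 72 ion channels, GABRQ, a subunit of GABA receptors, was upregulated with 5.87 and 7.46, the potassium channel KCNMA1 had 9.31 and 7.74, or 0.339-fold, and the median was 0.11.

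Ribosomal and mitochondrial genes stayed within 2-fold. The 58 cytosolic ribosomal protein genes had a median of 0.09 and a lowest change of -0.15, the 70 mitochondrial ribosomal protein genes a median of 0.11, and the 69 respiratory chain genes a median of 0.07, and 0 of these genes passed 2-fold. Their median spans were 5.03, 9.17 and 10.6 kb. Of 63 genes of ribosome biogenesis, 51 were higher, 0 were over 2-fold and 2 were under 0.5-fold, DDX10 and UTP20, which span 276 and 107 kb, UTP20 at -0.81 on the log2 scale against the mean of the 3 DMSO arrays. WDR74 and POLR1C were the highest at 1.97-fold and 1.92-fold. The median of the ribosome biogenesis list was 0.23, with a span-adjusted median of 0.13. Against the mean of the 3 DMSO arrays it was 0.65, and that of the cytosolic ribosomal proteins 0.40.

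Lists of developmental genes did not share a direction. The median was -0.17 for TGF-beta, BMP and Hippo signaling and -0.15 for Wnt genes, with span-adjusted medians of -0.03 and -0.02. Of 49 genes of TGF-beta, BMP and Hippo signaling, 4 were downregulated, among them the Hippo kinase STK3, with log2 signals of 8.81 and 6.89, or 0.265-fold, and the BMP receptor BMPR2, with 8.39 and 6.60, or 0.289-fold. Of 38 Wnt genes 3 were downregulated, TNIK at 0.192-fold, GSK3B, and TCF7L2 with a log2 change of -1.59. Of 24 glioma stemness factors, 1 was downregulated, the RNA-binding protein MSI2 with 10.34 and 7.74, or 0.166-fold, while HEY1 and SOX9, of 3.76 and 5.40 kb, were at 0.532-fold and 0.586-fold. The span-adjusted median of this list was -0.32, and that of the 26 astrocytic and mesenchymal glioma markers -0.29. The glutamate transporter SLC1A3 of that list had 10.83 and 9.67, or 0.449-fold, but a log2 change of -0.07 against the mean of the 3 DMSO arrays. Of 27 HOX genes, 25 were higher, the median was 0.35 and the span-adjusted median 0.13. HOXC5, with 5.41 and 6.93, was the only member over 2-fold.

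Zinc finger genes were frequent among the higher genes. Of 494 genes whose symbol is ZNF and a number, 416 were higher with RM and 22, or 4.45%, were over 2-fold, with a median log2 change of 0.32, which was 0.27 against the mean of the 3 DMSO arrays, and a span-adjusted median of 0.17. ZNF441 had log2 signals of 6.56 and 8.13, or 2.95-fold, ZNF682 had 6.79 and 8.28, or 2.80-fold, and ZNF552 had 6.11 and 7.52, or 2.67-fold. Many genes of this family are near-identical copies in clusters, and the array probes may be shared between them. ZNF438, of 188 kb, was among the 2 members under 0.5-fold, with 6.50 and 5.10. Of 175 small nucleolar RNA genes 130 were higher and 4 were over 2-fold, led by SNORD45C, with 8.23 and 9.62, and SNORD74, with 10.06 and 11.42. Their span-adjusted median was 0.09, and of all 3064 genes under 5 kb only 613 were lower with RM. The vault RNA genes VTRNA1-1, VTRNA1-2 and VTRNA1-3, which RNA polymerase III transcribes, were at 2.12-fold, 2.05-fold and 1.72-fold at signals between 3.33 and 6.77, and the median of the 3 was 0.18 on the log2 scale against the mean of the 3 DMSO arrays. Of 632 long noncoding RNA genes, 2 were downregulated, MIR99AHG, of 561 kb, at 0.195-fold, and IL6-AS1.

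Of the 769 genes that several probes read, 7 had a probe more than 3-fold lower where the mean of the probes was not, and in 4 of them the probes ran in opposite directions. For GALNT17 the probes were at 0.198-fold and 1.21-fold, for GRK5 at 0.302-fold and 1.20-fold, for ARHGAP42 at 0.313-fold and 1.15-fold and for AK4 at 0.266-fold and 1.30-fold. In each of these genes the lowered probe had the stronger signal with DMSO. PSD3 was read by probes at 0.068-fold and 0.227-fold, NRG1 at 0.099-fold and 0.352-fold, and ELMO1 at 0.125-fold and 0.138-fold, so that only the probes of ELMO1 were close. Where along the gene each probe lies was not used here.

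The doses of the other alkaloids differ from that of RM, and their values are given side by side without a comparison. Each compound has its own DMSO array, and 396 genes (2.15%) were more than 3-fold lower and 43 (0.233%) more than 3-fold higher in the ET-770 experiment, against 391 (2.12%) and 94 (0.51%) in that of its derivative. Of the 250 genes downregulated with RM, 199 were also more than 3-fold lower with ET-770, and 198 were with its derivative. All 250 were lower with each compound, though by log2 changes as small as -0.099 for ET-770 and -0.0945 for its derivative. Their median log2 changes were -2.25 for ET-770, -2.18 for its derivative and -1.93 for RM. The medians of all genes were 0.02 for ET-770 and -0.03 for its derivative. In the order RM, ET-770 and ET-770-DR, PLCB1 was at 0.106-fold, 0.111-fold and 0.114-fold, and DPYD at 0.125-fold, 0.135-fold and 0.148-fold. IL6 was at 0.173-fold, 0.431-fold and 0.937-fold, PI15 at 0.163-fold, 0.39-fold and 0.564-fold, and NRG1 at 0.187-fold, 0.354-fold and 0.464-fold. HBEGF was at 4.02-fold, 5.12-fold and 4.63-fold, and SPRR2D at 2.78-fold, 0.862-fold and 0.864-fold. Spearman's rank correlation between span and change over the genes of signal of at least 8 with RM was -0.53 for ET-770 and -0.42 for its derivative, as a description. With 1 array for each compound, whether any gene differs between compounds was not tested.

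**Figure D5:**
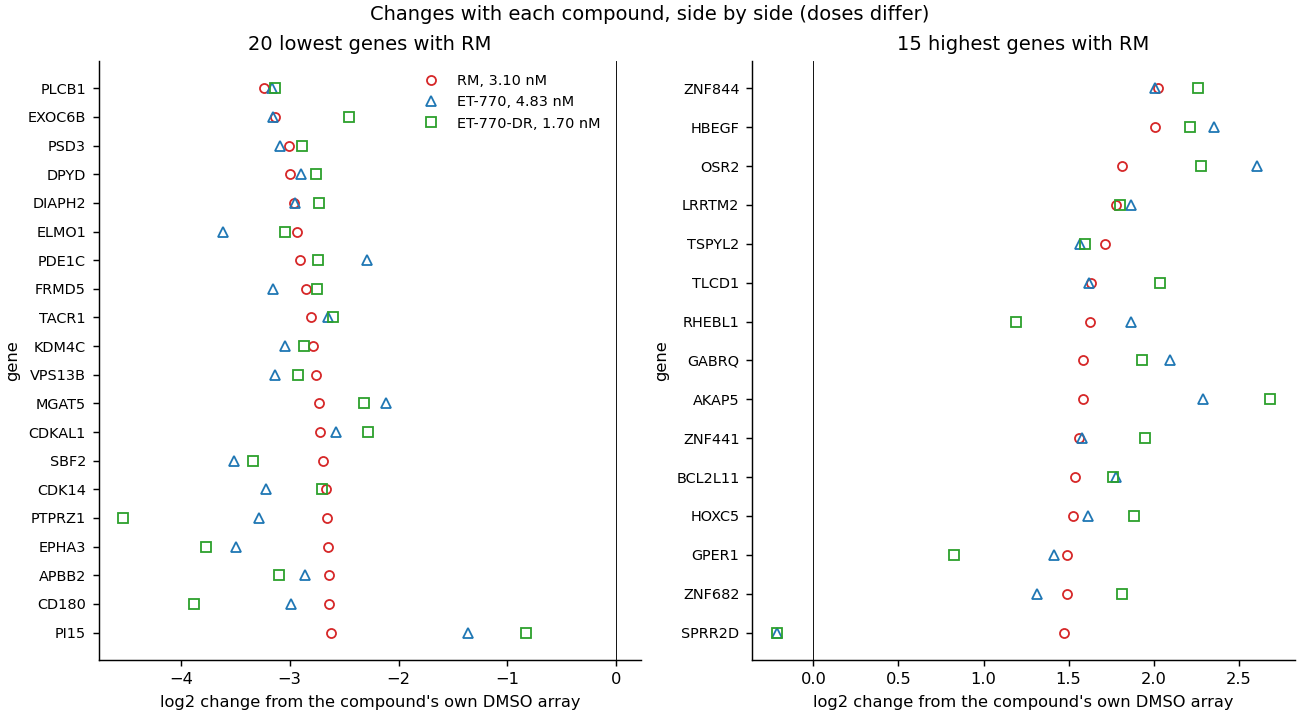
Log2 change from the compound's own DMSO array (horizontal axis) of the 20 lowest and 15 highest genes with RM, for RM (circles), ET-770 (triangles) and ET-770-DR (squares), at doses that differ. The 20 lowest genes lie below 0 with every compound, and of the 15 highest only SPRR2D lies below 0 with ET-770 and ET-770-DR.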

How the data were processed

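U373MG cells were exposed for 24 hours to RM at 3.10 nM or to DMSO, and total RNA was hybridized to Human Gene 1.0 ST arrays, 1 array per sample. The deposited log2 values are those of the authors' RMA run in Affymetrix Expression Console, which corrects the background, normalizes the arrays by quantiles and summarises the probes. Whether all 6 arrays were normalized together is not given in the sources used here. The medians over all probes were close within each pair but not between pairs, with 7.28 for the DMSO array of ET-770 against 6.68 and 6.63 for the other DMSO arrays, so that the arrays were quantile normalized before the DMSO arrays were averaged. The table holds 33297 probes, of which 19460 had 1 gene symbol, 1754 had several and 12083 had none. Probes with several symbols or none entered no gene value. Probes with 1 symbol were averaged per gene on the log2 scale without further normalization or filter, which gave 18417 genes, and the change was the RM array minus its DMSO array. The 3-fold thresholds are those of the study's methods. Gene names and spans came from RefSeq of GRCh38.p14, in which 19429 of the probes' Entrez IDs were found, and no coordinates of the array were used. Span classes were bounded at 5, 10, 20, 50, 100, 200 and 500 kb and signal classes at mean log2 signals of 6 and 8. Genes named are the 20 lowest and 15 highest, in each list the 4 genes of largest absolute change, genes the paper names, and genes that 1 probe alone puts past 3-fold, 218 in all. Short and long genes at odds with their span, cell markers and other list members were added after their values were seen. The members and the lists were chosen with earlier results of these data known. The counting was tested on simulated data. Another control, normalization, centring, probe rule, signal filter and fold limit were tried as alternatives. With 1 array per arm no p-value, standard error or replicate check exists, and the number of arrays limits the precision. A gene that the paper names and 1 of the gene lists are not reported here. The steps ran in Python 3.11.15 (pandas 2.3.3, numpy 2.4.6, matplotlib 3.10.9).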

Additional observations from a re-analysis of the deposited data

Results flagged for a closer look

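Of the 12083 probes without a gene symbol, which enter none of the comparisons above, 65 were more than 3-fold higher and 54 more than 3-fold lower on the RM array. These are counts of single probes, while the 8 and 250 genes above are counts of 18417 genes averaged over probes. They were flagged because these probes were set aside. Their signal levels are not given here, and what they read is not known from a symbol.

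In 5 genes RM lay past 1.5-fold in one direction and both other compounds past 1.5-fold in the opposite one, each against its own DMSO array and at doses that differ, and the difference was not tested. ANKRD1, a cardiac stress gene and YAP target, had a log2 change of -0.73 for RM (signals of 12.40 and 11.67), 1.84 for ET-770 and 1.25 for its derivative. EDN1, which encodes endothelin 1, had -0.71 (7.70 and 6.98), 1.57 and 1.64. The microRNA gene MIR29A had -1.01 (4.29 and 3.28), 0.94 and 0.77, and CCDC181 -0.60 (5.84 and 5.25), 0.62 and 0.87, both at low signals. HAPLN1, a hyaluronan link protein, had 0.83 (3.33 and 4.16), -0.68 and -0.64, with signals in the range of the olfactory receptors. These genes were chosen after their values were seen.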

How the results depend on the processing

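Against the mean of the 3 DMSO arrays after quantile normalization of all 6 arrays, where the median of all genes was -0.01 instead of 0.12, 412 genes were more than 3-fold lower and 101 more than 3-fold higher, so that 80.3% were lower. The median of the interferon response was then -0.85, and the changes of IFI44L, COL1A2 and COL5A2 were -1.73, 0.59 and 0.56, all of opposite sign. The median of microglia and macrophage markers was -0.0043 instead of 0.28, close to that of all genes. Medians also moved to -0.23 for ErbB receptors and ligands, -0.65 for receptor-type tyrosine phosphatases, 0.50 for heat shock proteins, 0.47 for DNA replication, -0.058 for G1/S regulators, 0.65 for ribosome biogenesis and 0.40 for cytosolic ribosomal proteins, and 12 of the 218 named genes had the opposite sign. Of these 218, 90 moved by less than the SD of the olfactory receptors and 125 moved further. The remaining 3 are IFI44L, COL1A2 and COL5A2, which were past 2-fold against the DMSO array of RM and had the opposite sign here. With the same normalization and the DMSO array of RM alone, added after seeing the data, 246 genes were more than 3-fold lower and 5 more than 3-fold higher, and the 50 list medians and the 218 named genes all moved by less than that SD. The cause of the difference between the DMSO arrays was not tested.

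At 2-fold, 788 genes were below and 123 above the limits, 86.5% of them lower. With every probe by itself, added after seeing the data, 74 were more than 3-fold higher and 81.3% of those past 3-fold were lower. This count takes in the probes without a gene symbol, of which 65 were more than 3-fold higher and 54 more than 3-fold lower. It is therefore not a count of the same genes without averaging. With the all-gene median set to 0, also added then, 5 genes were more than 3-fold higher. With signals of at least 6, the medians of ErbB receptors and ligands and of extracellular matrix chains were -0.17 and -0.56. Genes over 200 kb with signals of at least 8 had medians between -1.44 and -1.31 under the alternatives run. No paired analysis was possible because there is 1 array per arm, and no array could be left out. Genes near background cannot show a fall.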
